A study of Homo sapiens with 7 samples.

Results

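The promoter contacts of 7 transcription factor genes that specify or mark the Müllerian duct and its derivatives, PAX8, PAX2, SOX17, EMX2, MSX1, LHX1 and WT1, were examined in H3K27ac HiChIP data. They are 7 of the 20163 protein-coding genes tested, and they were chosen by name with earlier results of these data known. A contact is a loop, that is, a pair of different anchors on 1 chromosome joined by at least 3 read pairs, and a loop was assigned to a gene when an anchor overlapped a 500 bp window centred on any of its annotated start sites (GENCODE on GRCh37). HiChIP ligates DNA ends that lie close together in fixed nuclei and enriches the products carrying acetylated lysine 27 of histone H3, a mark of active promoters and enhancers.

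The 7 samples came from 3 established human cancer cell lines and had been pooled into 1 loop list per line. Ishikawa (endometrial adenocarcinoma) contributed 4 samples, of which 2 were given the vehicle DMSO and 2 were given 10 nM 17β-estradiol (E2), in both cases for 1 h. T-47D (breast ductal carcinoma) contributed 1 sample and LNCaP (prostate carcinoma) 2 samples, and the labels give no treatment for these 3. Chromatin was cut with DpnII in Ishikawa and with MboI in T-47D and LNCaP, both at GATC, and sonication, read length and sequencing depth followed the same split, so none of these can be told apart from the cell line. The DMSO and E2 samples could not be separated within the Ishikawa list and were not compared. The Ishikawa list held 1040329 read pairs in loops, the T-47D list 351260 and the LNCaP list 1805322. Levels are given as RPM, read pairs per 1000000 listed read pairs, on which scale the minimum of 3 read pairs was 2.88 for Ishikawa, 8.54 for T-47D and 1.66 for LNCaP. With 1 pooled list per line no value has a replicate error, and no p-value could be computed for a difference between lines. Intervals are exact 95% Poisson intervals, which cover counting error only, since PCR copies are not independent molecules.

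The Müllerian ducts give rise to the oviduct, the uterus and the upper vagina. LHX1, PAX2, PAX8 and EMX2 are homeobox or paired-box factors needed for the duct and the neighbouring urogenital epithelium to form, WT1 is a zinc finger factor of the urogenital ridge, and SOX17 and MSX1 are expressed in uterine epithelium. PAX8 and SOX17 are used in pathology to recognise tumours of Müllerian origin. As a check of the labels by promoter RPM, HOXA10 was highest in Ishikawa, at 84.6 against 0 in T-47D and 37.7 in LNCaP. GATA3 and TRPS1 were highest in T-47D, and KLK3, KLK2, HOXB13 and TMPRSS2 in LNCaP. PAX8, SOX17 and EMX2, also set as endometrial markers, were highest in Ishikawa, but they are members and give no separate check. The markers HOXA11, TFAP2B and ANKRD30A had 0 read pairs in every list.

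The DNA just upstream of PAX8, EMX2 and MSX1 is shown because these are the members with the most promoter read pairs and their 5′ start sites lay inside Ishikawa anchors. Each sequence is the 250 bases before the gene's 5′ start, read on the gene's strand from the GRCh37 genome. Capitals mark the motif CCAAT, printed as ATTGG where it lies on the opposite strand, and the motif GGGCGG, printed there as CCGCCC. The motif TATAAA was also searched for and was found upstream of none of the 7 genes.
PAX8, chr2:114036499-114036748, minus strand: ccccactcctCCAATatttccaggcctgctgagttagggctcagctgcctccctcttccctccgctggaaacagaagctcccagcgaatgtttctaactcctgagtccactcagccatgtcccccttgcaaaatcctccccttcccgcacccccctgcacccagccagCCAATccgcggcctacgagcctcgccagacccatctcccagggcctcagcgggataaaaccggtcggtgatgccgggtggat
EMX2, chr10:119301706-119301955, plus strand: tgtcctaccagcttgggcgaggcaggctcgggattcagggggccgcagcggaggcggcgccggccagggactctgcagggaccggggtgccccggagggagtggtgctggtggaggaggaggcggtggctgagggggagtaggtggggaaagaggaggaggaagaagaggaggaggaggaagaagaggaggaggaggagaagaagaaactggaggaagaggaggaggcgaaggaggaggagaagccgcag
MSX1, chr4:4861142-4861391, plus strand: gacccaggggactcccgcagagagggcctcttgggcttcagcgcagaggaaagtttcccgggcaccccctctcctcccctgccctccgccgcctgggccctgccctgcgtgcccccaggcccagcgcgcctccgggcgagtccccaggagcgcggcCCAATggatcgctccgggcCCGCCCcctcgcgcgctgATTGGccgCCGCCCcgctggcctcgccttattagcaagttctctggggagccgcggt

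The PAX8 sequence held 2 CCAAT matches and no GGGCGG, the MSX1 sequence held 2 of each, and the EMX2 sequence, a purine-rich stretch, held neither. Over the promoters of 20140 protein-coding genes of the same length, 33.1% held CCAAT, 48.8% GGGCGG and 10.1% TATAAA. The number of CpG dinucleotides was 11 in PAX8, 12 in EMX2 and 24 in MSX1, against a median of 14. Among the other members CpG counts were 10 for PAX2, 20 for WT1, 26 for SOX17 and 30 for LHX1, whose percentile of 89.2 was the highest of the 7. These matches describe letters in the reference genome and are not measured binding sites.

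Contacts at these promoters were found mainly in the Ishikawa list. A promoter loop was listed in Ishikawa for 6 of the 7 genes, where 57.3% of all genes had one. In T-47D it was 0 of 7 against 49.2% of all genes, and in LNCaP 1 of 7 against 58.1%. The Ishikawa loops of the 7 genes numbered 45 and held 423 read pairs, and the 2 LNCaP loops, both at MSX1, held 9. A value of 0 means that no loop was kept in the list: the authors removed loops with under 3 read pairs or a false discovery rate at or over their limit, and in Ishikawa this acted on each separately listed part.

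The order of the genes in Ishikawa ran from PAX8 to LHX1. PAX8 had 162 read pairs (95% interval 138 to 189), EMX2 103 (84.1 to 125), MSX1 72 (56.3 to 90.7), PAX2 46 (33.7 to 61.4), SOX17 27 (17.8 to 39.3), WT1 13 (6.92 to 22.2) and LHX1 0 (up to 3.69). The interval of PAX8 lay above all others, whereas those of EMX2 and MSX1, of MSX1 and PAX2, of PAX2 and SOX17, and of SOX17 and WT1 overlapped. The order turns with the counting: with 1 start site per gene PAX8 had 95 read pairs and EMX2 103, and with loops of 20 kb to 1 Mb only EMX2 had 43, below MSX1 with 72 and PAX2 with 46. Among all 20163 genes PAX8 ranked 554 and EMX2 1097, followed by MSX1 at 1805, PAX2 at 3014, SOX17 at 4880 and WT1 at 7388. The median over the 7 members was 46 read pairs in Ishikawa and 0 in each of the other lists, while over all 20163 genes it was 4 in Ishikawa, 0 for T-47D and 13 for LNCaP.

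**Figure D1:**
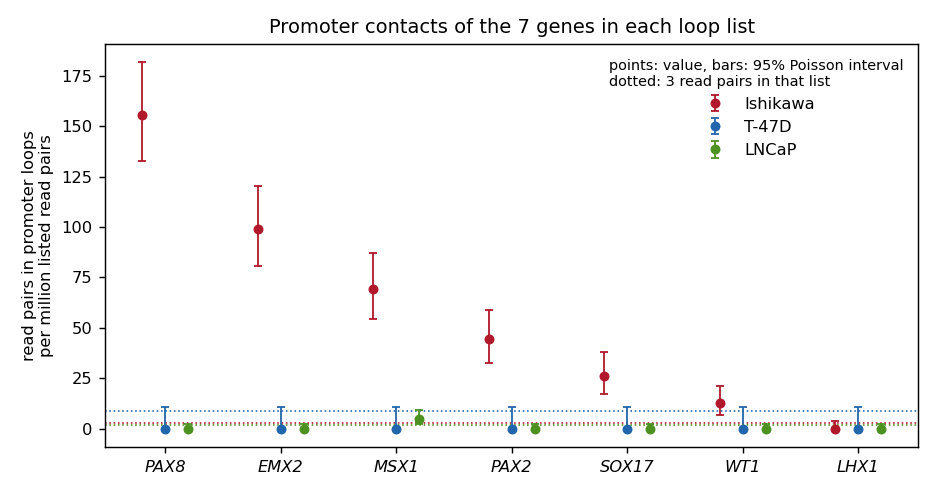
Read pairs in promoter loops per 1000000 listed read pairs (RPM, vertical axis) for the 7 genes in the Ishikawa, T-47D and LNCaP lists, with exact 95% Poisson intervals as bars and 3 read pairs of each list as dotted lines. Ishikawa values fall from 156 RPM for PAX8 to 0 for LHX1, all T-47D values are 0, and MSX1 at 4.99 RPM is the one LNCaP value above 0.

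On the RPM scale the Ishikawa level was 156 for PAX8, 99 for EMX2, 69.2 for MSX1, 44.2 for PAX2, 26.0 for SOX17 and 12.5 for WT1. A gene was called higher where this level was at least 2-fold that of the other list, with a list at 0 set to 3 read pairs for the gene. That minimum acted on single loops while a gene's level sums its loops, so a fold over a list at 0 is a value on this scale and not a lower bound. Over T-47D, 5 of the 7 genes were called, where 16.1% of all genes were. The folds so computed were 18.2 for PAX8, 11.6 for EMX2, 8.10 for MSX1, 5.18 for PAX2 and 3.04 for SOX17, while WT1 was at 1.46. When T-47D was instead allowed 3 read pairs for each loop that the gene had in Ishikawa, 0 of 7 were called, where 0.164% of all genes were, and PAX8 was at 1.30 and MSX1 at 1.35.

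Over LNCaP, 6 of the 7 genes were called against 22.9% of all genes, and over both lists 5 against 12.5%. With LNCaP at 3 read pairs the folds were 93.7 for PAX8, 59.6 for EMX2, 26.6 for PAX2, 15.6 for SOX17 and 7.52 for WT1. With 3 read pairs allowed for each Ishikawa loop of the gene they were 6.69, 4.96, 3.33, 5.21 and 3.76, and the same 6 genes were called. MSX1, with 9 read pairs in LNCaP (4.12 to 17.1), was 13.9-fold higher in Ishikawa. LHX1 was at 0 in all 3 lists and has no fold. These calls depend on the scale. The methods state a sequencing depth per sample, as a range for Ishikawa, of which the middle was taken. Divided by this depth times the number of samples, 0 of 7 genes were called over T-47D and 2 over LNCaP, PAX8 and EMX2, when 0.982% and 2.17% of all genes were. Divided by the depth per sample alone, 4 were called over T-47D (PAX8, EMX2, MSX1 and PAX2) and 3 over LNCaP (PAX8, EMX2 and PAX2), against 7.41% and 5.11% of all genes. Divided by the read pairs listed within 1 Mb of each gene, PAX8 and SOX17 were called over both lists, and PAX2 and EMX2 over LNCaP alone.

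PAX8 (ENSG00000125618.18_12, chr2:113973574-114036498, minus strand) is a paired-box factor of thyroid, kidney and the female tract. Its promoters lay in 2 wide Ishikawa anchors. The anchor over the 5′ start, chr2:114029281-114048139, covered 5 start sites and had 95 read pairs in 7 loops, and the anchor chr2:113973846-113989907 over an internal start near the 3′ end had 92 in 8 loops. The anchors were joined to each other by 25 read pairs, which ranked 150 among 23850 Ishikawa loops of like span, where the median was 3 and the 90th percentile 8. Here and below, loops of like span were taken from the whole genome. They were matched on span only and not on anchor width or local loop density. The median Ishikawa anchor was 5.10 kb wide.

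The strongest partner of PAX8 was chr2:113952980-113972140. This anchor lay over an exon and a start site window of PAX8-AS1, a long noncoding RNA gene antisense to PAX8. It also lay over a start site of PSD4, a guanine nucleotide exchange factor gene. It had 30 read pairs with the internal anchor, in all 4 parts of the Ishikawa list, and 23 with the 5′ anchor in 3 of them. This partner was 19.2 kb wide and ended just before the internal anchor began, so the 30 read pairs join near neighbours. An intronic anchor of PAX8, chr2:114006497-114013645, was joined to both promoter anchors, by 16 read pairs to the 5′ anchor and 11 to the internal one. This intronic anchor overlapped a start site window of PAX8-AS1 as well. Upstream of the gene, anchors at 14.6, 30.7 and 52.3 kb from the 5′ start carried loops, of which the first had 13 read pairs and the last, in the noncoding gene LINC02966, had 12 and 9 with the 2 promoter anchors. The first of these anchors began just beyond the end of the 5′ promoter anchor. The remaining partners reached a second PSD4 anchor, the promoter of IL1RN, the interleukin 1 receptor antagonist, with 4 read pairs, and LINC02966 129 kb upstream with 3.

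The PAX8 locus was not without anchors in the other lists. In T-47D the anchor nearest to the 5′ start was at PSD4, 79.0 kb away, and had 1 loop of 3 read pairs. In LNCaP it was also at PSD4, 78.3 kb away, with 19 read pairs in 2 loops that reached IL1F10 and PSD4 itself. Measured from the closest of all PAX8 start sites, the nearest anchor was 20.6 kb away in T-47D and 19.8 kb in LNCaP. Neither list joined the PSD4 anchors to a PAX8 promoter.

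PAX2 (ENSG00000075891.24_14, chr10:102495153-102589701, plus strand) is the paired-box paralog that acts with PAX8 in the early urogenital tract. Its 5′ start was in no Ishikawa anchor, and the nearest one ended 9.71 kb upstream. All 46 read pairs came through 1 anchor, chr10:102508458-102513895, which covered 1 of 8 annotated start sites and began 13.3 kb inside the gene. With 1 start site per gene, PAX2 therefore had 0 read pairs. The anchor made 8 loops, all to regions without a protein-coding promoter, at distances of 28.8 to 147 kb from the 5′ start on both sides.

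One PAX2 loop stood above the others. It joined chr10:102605568-102617618, downstream of the gene, with 16 read pairs split over the 4 parts as 4, 3, 4 and 5. It ranked 271 among 18978 loops of like span, a rank that does not account for the dense part of chromosome 10 described below. The next PAX2 loop had 9 read pairs in 2 parts and reached chr10:102457882-102474751 upstream, and 4 of the 8 loops were at the minimum. Part 4 alone supplied 29 of the 46 read pairs, and without it 17 remained. In T-47D an anchor lay 3.46 kb upstream of the PAX2 5′ start with 1 loop of 3 read pairs. In LNCaP the anchor nearest to the 5′ start was 173 kb away, and the closest of all PAX2 start sites was 160 kb from an anchor.

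EMX2 (ENSG00000170370.12_6, chr10:119301956-119309057, plus strand) encodes a homeobox factor needed for the reproductive tract and the kidney. The Ishikawa anchor chr10:119301042-119314990 covered the gene and its 4 start sites together with that of EMX2OS, the divergent antisense RNA, so contacts of the 2 genes cannot be told apart. It made 12 loops. The 2 strongest went to adjacent downstream regions, chr10:119315812-119320359 with 36 read pairs and chr10:119321488-119328182 with 21, and both were found in all 4 parts.

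Ranked among Ishikawa loops of like span genome-wide, the EMX2 loop of 36 read pairs was 362 of 26295. The loop of 21 was 1159 of 29853. These ranks do not account for the dense part of chromosome 10, described below, in which EMX2 lies. Anchor width was not matched either, and the EMX2 anchor was 13.9 kb wide and ended just before the first of these partners. Of the other 10, the loops at 163 and 179 kb downstream had 7 and 9 read pairs in 2 parts each, and 6 were at the minimum of 3. The longest, 1491 kb, reached the promoter of NANOS1, an RNA-binding germ cell factor, with 3 read pairs in 1 part. In T-47D and LNCaP no anchor lay within 149 kb of the EMX2 start.

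EMX2 and PAX2 lie on the part of chromosome 10 beyond 74 Mb, where Ishikawa loops were dense. Of the 429 protein-coding genes there, 79.0% had an Ishikawa loop and the median was 55 read pairs, against 53.7% and 3 for the 313 genes before that position. In T-47D the shares were 53.8% and 50.8%, and in LNCaP 60.6% and 55.6%. Among the 429 genes EMX2 ranked 148 and PAX2 232, so that PAX2 lay below the median of its own segment. Among genes before 74 Mb the same read pairs would have ranked 6 and 29.

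**Figure D2:**
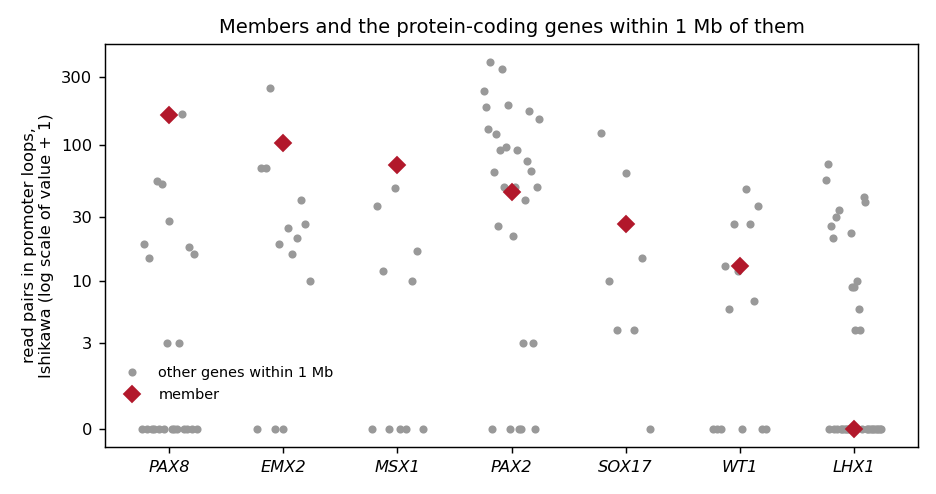
Ishikawa read pairs in promoter loops (vertical axis, log scale of the value plus 1) for each of the 7 genes (red diamonds) and the other protein-coding genes with a 5′ start within 1 Mb of the member's (grey points). MSX1 is the highest gene of its neighbourhood, PAX8 and EMX2 are each passed by 1 gene, and PAX2 lies among its neighbours. The gene above PAX8 is PSD4, which shares loops with it.

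Set against the protein-coding genes whose 5′ start lay within 1 Mb of their own, MSX1 ranked 1 of 11 genes, PAX8 2 of 24 and EMX2 2 of 14. The genes above them were PSD4, with 166 read pairs against 162 for PAX8, and HSPA12A, a heat shock protein family gene, with 252 against 103 for EMX2. The counts of PSD4 and PAX8 are not separate, since the loops joining their promoter anchors, of 30, 23, 7 and 3 read pairs, enter both. SOX17 ranked 3 of 8 and WT1 5 of 15. PAX2 was 19 of 29, where the median of the neighbourhood was 64 read pairs and CHUK, a kinase of NF-κB signalling, had 384.

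MSX1 (ENSG00000163132.8_8, chr4:4861392-4865663, plus strand) encodes a homeobox factor of uterine epithelium and of many embryonic tissues. One contact dominated it. The Ishikawa anchor over MSX1, chr4:4860526-4870350, was joined by 54 read pairs to chr4:4488992-4529309, a 40.3 kb anchor in an intron of STX18, a syntaxin gene of vesicle transport, 352 kb upstream. This loop held 75% of the MSX1 read pairs and ranked 1 among 5884 Ishikawa loops of like span, where the median was 3 and the 90th percentile 5. That rank does not account for the width of the partner anchor, which is far above the Ishikawa median of 5.10 kb. The 4 parts gave 15, 5, 22 and 12 read pairs, so that every part held it.

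MSX1 was also the member with contacts in a second line. In LNCaP the anchor chr4:4860201-4863185 over the MSX1 start had 2 loops, both into introns of STX18. One, with 3 read pairs, ended at chr4:4508173-4510101, inside the Ishikawa partner anchor, and the other, with 6, ended at chr4:4477826-4481644, just beyond it. These were ordinary for LNCaP loops of that span, whose median was 4 and 90th percentile 11. The 5 weaker Ishikawa loops of MSX1 had 3 to 5 read pairs, each in 1 part. In T-47D the whole neighbourhood within 1 Mb held 1 loop of 4 read pairs.

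**Figure D3:**
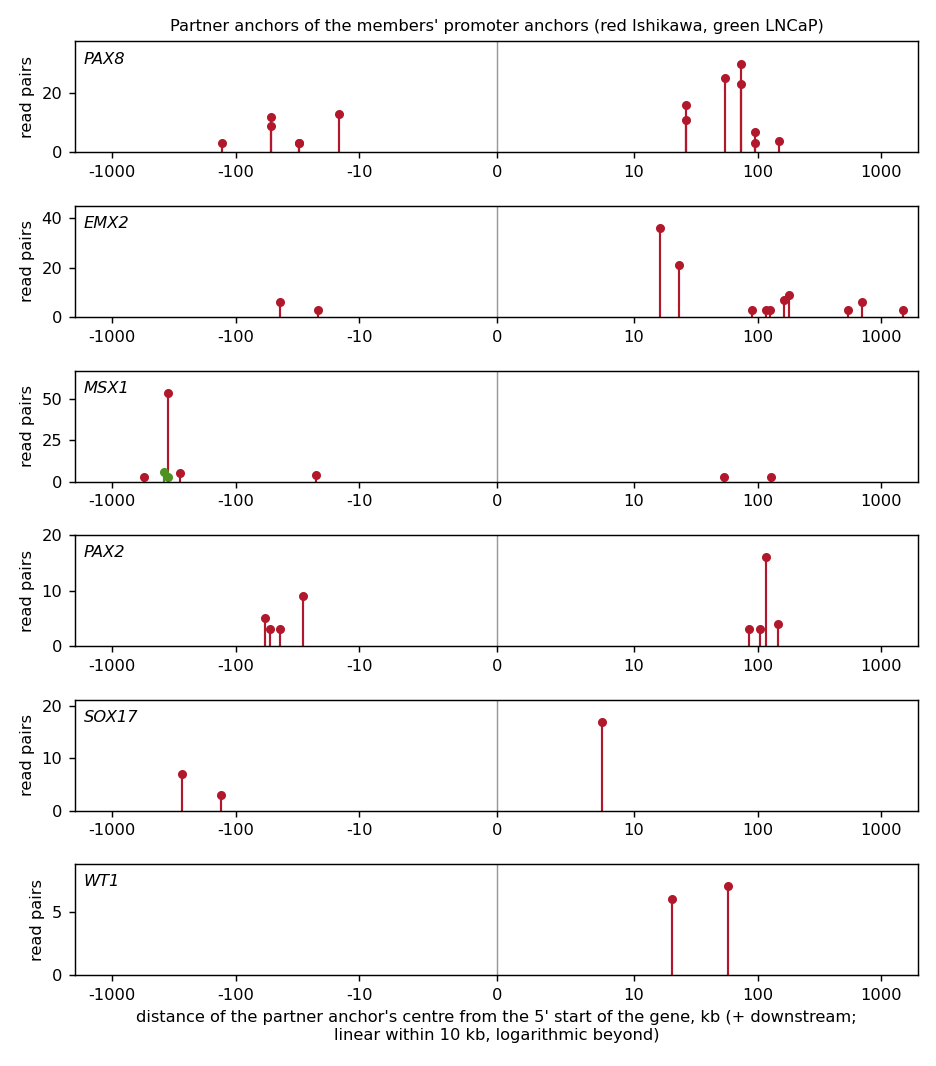
Read pairs (vertical axes, 1 panel per gene) of each loop of the members, placed by the distance of the partner anchor's centre from the gene's 5′ start (kb, downstream positive, linear within 10 kb and logarithmic beyond), in red for Ishikawa and green for LNCaP. The 54 read pairs of MSX1 stand 352 kb upstream beside both LNCaP loops, and the strongest partners of EMX2 and SOX17 lie within 25 kb downstream.

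LHX1 (ENSG00000273706.5_7, chr17:35294084-35301912, plus strand), a LIM homeobox factor that acts early in duct formation, had no loop in any list. None of its 6 start sites was covered by an anchor. The anchor nearest to its 5′ start was in each list the one at AATF, a downstream gene of transcription and apoptosis control, 11.1 kb away in Ishikawa and T-47D and 9.0 kb in LNCaP. This anchor had 36 read pairs in Ishikawa loops, 12 in those of T-47D and 30 in those of LNCaP, so every list held contacts next to LHX1.

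WT1 (ENSG00000184937.16_15, chr11:32409321-32457110, minus strand), the zinc finger factor, was contacted at internal start sites only. Its Ishikawa anchors chr11:32421091-32425966 and chr11:32434801-32438722 overlapped the 500 bp windows of 5 of 21 start sites and lay 31.1 and 18.4 kb from the 5′ start. The second anchor ended just short of the start site itself and met only its window. They were joined to each other by 6 read pairs, and the first was joined by 7 to chr11:32397182-32402111 beyond the 3′ end. Both loops were in 2 parts, and both stayed under the 90th percentile of their span. With 1 start site per gene WT1, like PAX2, had 0 read pairs. In T-47D an anchor did cover the 5′ start, with 4 read pairs inside it and no loop, and in LNCaP the nearest anchor was 6.94 kb upstream.

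SOX17 (ENSG00000164736.6_6, chr8:55370495-55373452, plus strand) encodes an SRY-related factor of endoderm, endothelium and uterine epithelium. Its single start site lay in the Ishikawa anchor chr8:55364188-55373632, which made 3 loops. The strongest, 17 read pairs in 3 parts, joined chr8:55374632-55381618, next to the 3′ end, and stayed just below the 90th percentile of 19 for its short span. A loop of 7 read pairs in 2 parts reached 272 kb upstream, over a 90th percentile of 6, and a loop of 3 reached 131 kb upstream. In T-47D and LNCaP the nearest anchor to SOX17 was the promoter of MRPL15, a mitochondrial ribosomal protein gene, 321 kb away.

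The 45 Ishikawa loops of the members were compared with all Ishikawa loops. Of these, 20 (44.4%) occurred in 2 or more parts of the list, against 33.8% of all 163530 loops, and 6 occurred in all 4. The member loops exceeded the median of their span in 25 cases and reached its 90th percentile in 14. At the minimum of 3 were 18 (40%), against 45.5% of all Ishikawa loops. Small counts have many ties, and the shares of all loops above the median, at the 90th percentile or in all 4 parts were not computed. Those 3 counts therefore have no background here. The partner was an anchor without a protein-coding promoter in 37 loops and a promoter in 8, of which 6 were PAX8 loops. The gene with the nearest 5′ start to the partner was the member itself in 28 loops, and 6 loops passed over at least 1 other protein-coding gene. The median span was 76.2 kb.

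**Figure D4:**
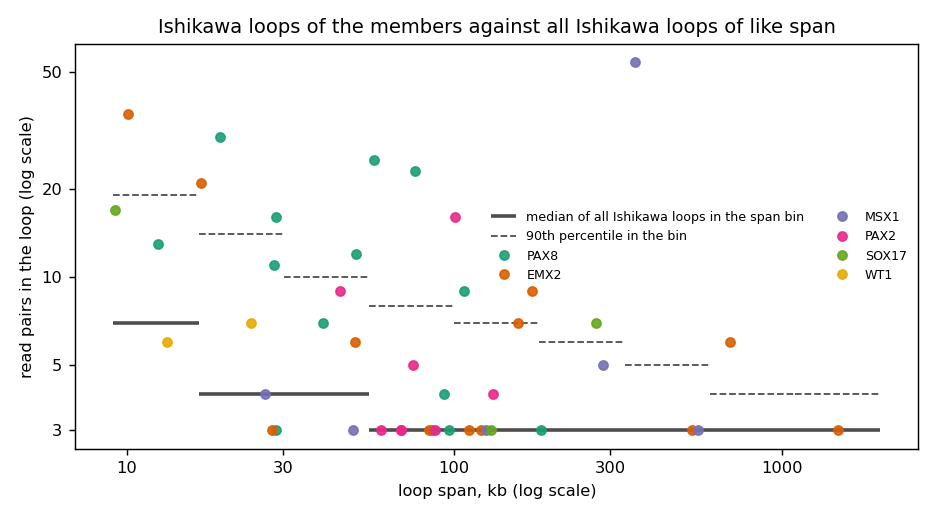
Read pairs (log scale) against span in kb (log scale) for the 45 Ishikawa loops of the members, coloured by gene, with the median (solid) and 90th percentile (dashed) of all Ishikawa loops in each span bin. The MSX1 loop of 54 read pairs at 356 kb is far above the 90th percentile of 5, in bins that do not account for anchor width. Of the 45 loops, 18 (40%) lie at 3, as do 45.5% of all Ishikawa loops.

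The parts of the Ishikawa list gave a limited view of how stable each gene was. They are 4 separately sorted runs of rows that held 90130 to 442087 read pairs, and no source ties them to samples or treatments. PAX8 had 44, 16, 62 and 40 read pairs in parts 1 to 4 and EMX2 14, 17, 36 and 36. MSX1 had 24, 5, 28 and 15, PAX2 7, 6, 4 and 29, and WT1 3, 3, 4 and 3. These 5 genes thus had at least 1 loop in every part. For WT1 it was not the same loop. Parts 1 and 2 held the loop between its own anchors, and parts 3 and 4 the loop beyond the 3′ end. SOX17 had 15, 0, 5 and 7, so that part 1 held most of it and part 2, the smallest, none, and without part 1 it no longer passed 2-fold over T-47D.

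**Figure D5:**
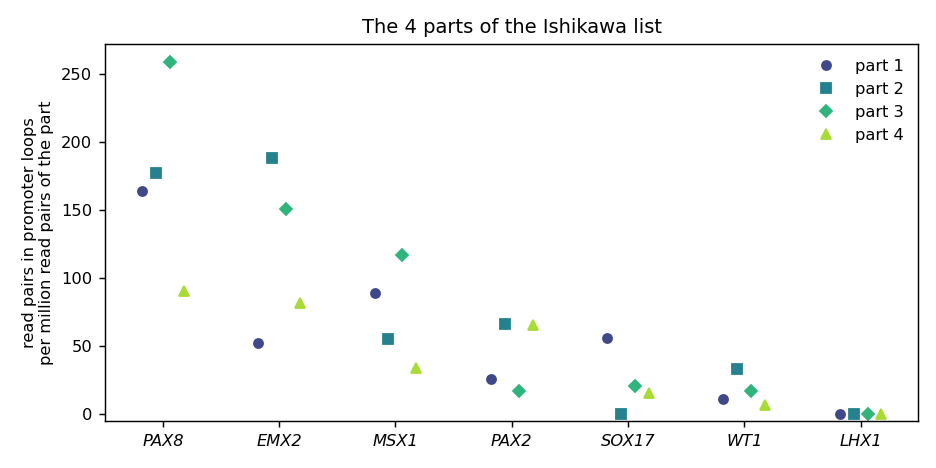
Read pairs in promoter loops per 1000000 read pairs of each part (vertical axis) for the 7 genes in the 4 separately sorted parts of the Ishikawa list. PAX8 spans 90.5 to 259 RPM and EMX2 52.1 to 189, SOX17 is 0 in part 2, and LHX1 is 0 in every part.

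Few of the regions contacted in Ishikawa were anchors elsewhere, which also held for Ishikawa anchors in general. Of the 40 partner anchors, 2 overlapped an anchor of T-47D and 3 an anchor of LNCaP, which is 5% and 7.5%, against 10.9% and 18.6% of all 92121 Ishikawa anchors. The difference rests on few anchors. The 92121 also include anchors over promoters, whereas most of the 40 held no protein-coding promoter. Both lists shared the PSD4 anchor of PAX8 and the NANOS1 anchor of EMX2, where their loops reached EIF3A, and LNCaP shared the STX18 anchor of MSX1 as well. LNCaP anchors inside the STX18 region had 46 read pairs in 7 loops, 3 of those read pairs with MSX1.

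Because part of the Ishikawa cells had received E2, the partner anchors were searched for the estrogen response element, the palindrome GGTCA and TGACC separated by 3 bases, which reads the same on both strands. An exact match was present in 1 of 40 partner anchors (2.5%), where 0.732% of Ishikawa anchors of like width hold one. With at most 1 mismatch it was 11 of 40 (27.5%), against 16.0% of anchors of like width. Examples are shown for the exact case and for the partners found in all 4 parts, of which 3 of 6 had a match. In the width classes of these 6, from 10.2% to 25.2% of Ishikawa anchors hold one with at most 1 mismatch. With 6 partners the count is too small to be compared with these shares. Each line gives a window of the GRCh37 plus strand with the matched bases in capitals.
MSX1 partner 22.5 kb upstream, exact, chr4:4838095-4838147: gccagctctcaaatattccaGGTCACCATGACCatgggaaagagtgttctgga
MSX1 partner in STX18, 1 mismatch, chr4:4490427-4490479: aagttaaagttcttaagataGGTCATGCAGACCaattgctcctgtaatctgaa
MSX1 partner in STX18, 1 mismatch, chr4:4503100-4503152: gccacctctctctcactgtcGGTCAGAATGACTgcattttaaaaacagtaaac
MSX1 partner in STX18, 1 mismatch, chr4:4511474-4511526: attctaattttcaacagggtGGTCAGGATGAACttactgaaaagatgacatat
EMX2 partner 22.9 kb downstream, 1 mismatch, chr10:119327375-119327427: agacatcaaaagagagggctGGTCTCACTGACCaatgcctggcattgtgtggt
PAX2 partner 116 kb downstream, 1 mismatch, chr10:102608758-102608810: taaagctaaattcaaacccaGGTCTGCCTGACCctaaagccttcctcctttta
PAX2 partner 116 kb downstream, 1 mismatch, chr10:102611880-102611932: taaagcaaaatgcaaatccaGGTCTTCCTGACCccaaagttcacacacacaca

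The exact match lay in a weak MSX1 partner, with 4 read pairs in 1 part. The STX18 anchor, with 3 near matches, is the widest partner at 40.3 kb, and the class of like width it falls in starts well below that size. The 3 other partners seen in all 4 parts, at PAX8 and EMX2, held no match within 1 mismatch. Whether the receptor occupies any of these positions was not measured here.

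Paralogs of the members had other distributions over the lists. Of these, SOX7, SOX18 and PAX5 had 0 read pairs in every list, EMX1 had 3 in Ishikawa only, and LHX5 had 13 in Ishikawa only, unlike LHX1. MSX2, the paralog of MSX1, showed the opposite distribution, with 102 read pairs in T-47D, 3 in LNCaP and 0 in Ishikawa. EGR1, an immediate-early gene with zinc fingers related to those of WT1, had 3, 121 and 173 in Ishikawa, T-47D and LNCaP. On the RPM scale these are 2.88, 344 and 95.8, so that T-47D was highest.

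Other genes of Müllerian and urogenital development were less uniform. Of 37 such genes, 20 (54.1%) had an Ishikawa loop, 12 (32.4%) a T-47D loop and 15 (40.5%) a LNCaP loop, each below the share of all genes. Of these, 4 (10.8%) were called higher in Ishikawa than in T-47D, 11 (29.7%) than in LNCaP and 3 (8.11%) than in both, against 16.1%, 22.9% and 12.5% of all genes. The 3 were WNT7A, a secreted signal of the oviduct and uterus, with 62 read pairs in Ishikawa and 0 elsewhere, and HOXA9 and HOXA10, positional homeobox genes in 1 shared anchor, with 88, 0 and 68 in Ishikawa, T-47D and LNCaP. AMHR2, the receptor for the hormone that makes the duct regress, had 96, 0 and 95, or 92.3, 0 and 52.6 RPM. On the same scale HOXA9 and HOXA10 were at 84.6, 0 and 37.7. The genes with the most Ishikawa read pairs were the retinoic acid receptor gene RARG with 341, the planar polarity gene CELSR1 with 318 and ESR1, the estrogen receptor, with 299. In T-47D they were RARA with 1131, GATA3 with 1063 and PGR, the progesterone receptor, with 517.

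Genes on other chromosomes with the most similar levels across the 3 lists were identified by the distance between log2(RPM + 1) values. The 3 nearest to PAX8 were keratin-associated protein genes, KRTAP1-1, KRTAP1-3 and KRTAP2-1, each with 162, 0 and 0 read pairs. The nearest to EMX2 were CLEC12B, GRIN2C and MDM1, to PAX2 AC005609.1, ALMS1 and ARHGAP42, and to SOX17 ANKDD1B, ASB2 and C16orf54, all at a distance of 0. For MSX1 they were SFXN5 with 70, 0 and 9, CAPZA2 with 64, 0 and 9, and RIMKLB with 62, 0 and 9. With 3 lists per gene and ties broken by symbol, such likeness describes only these levels.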

How the data were processed

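Per the study's methods and its processing notes, the authors aligned reads to hg19 with HiC-Pro and called loops with hichipper. Loops under 3 reads, or at or over the authors' false discovery limit, were removed, and samples and treatments of a line were combined. As deposited, a loop's value is its count of supporting read pairs, unscaled. The Ishikawa list is 4 separately sorted parts, which were summed per anchor pair. Pairs of an anchor with itself were kept apart, and no value column lacked a group. Coordinates are on hg19 (GRCh37), counted from 1.

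Promoters were 500 bp windows on all start sites of 20163 protein-coding genes (GENCODE 44 lifted to GRCh37). The members and lists of genes were chosen with earlier results of these data known. The text names the members, genes with a promoter in their partner anchors, the paralogs, up to 5 genes of the developmental list with the most read pairs per list, and for each member with 20 or more Ishikawa read pairs the 3 genes of most similar levels. CHUK, HSPA12A, AATF, MRPL15 and STX18, which are neighbours, were named after their values were seen. Promoter sequences are credited to the GRCh37 genome. None is shown for SOX17. One marker gene and 1 matched sequence are not reported here.

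Scripts used Python 3.11.15, pandas 2.3.3 and SciPy 1.17.1. They were tested on simulated data: planted loops of 200 of 200 genes were recovered with their counts and folds. Alternatives were minima of 5 and 10 read pairs, promoters of 2 kb, 1 start site per gene, spans of 20 kb to 1 Mb, loops in 2 or more parts, leaving out each part, thinning to the shallowest list (median of 20 draws), a 4-fold threshold and other scales. Scaling to the stated depth, the floor of 3 read pairs per loop of a gene and the search with 1 mismatch were chosen after seeing the data.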

Additional observations from a re-analysis of the deposited data

Results flagged for a closer look

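Read pairs with both ends in the same anchor are not loops and entered none of the counts above, but they were listed at several members. The Ishikawa promoter anchors had 96 such read pairs at PAX8, 55 at EMX2, 25 at MSX1, 12 at SOX17 and 11 at WT1, and the anchor over the WT1 start in T-47D had 4. Each is above the 3 counts that a value of 0 allows. Over all anchors with such rows the median was 6 and the 90th percentile 22 in Ishikawa, and 11 and 45 in T-47D, so that PAX8, EMX2 and MSX1 were above the Ishikawa 90th percentile, PAX8 as the sum of 2 anchors with 74 and 22. The PAX2 anchor had 0. The LNCaP list held no rows of this kind, so nothing can be said of it.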

How the results depend on the processing

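Values that a setting could not change (totals at 0 in T-47D, LHX1, and LNCaP values when only Ishikawa loops change) are left out of the tallies. Of the other 102 recomputed counts and totals over the members, 78 stayed within 1.5 times the value given. With 10 or more read pairs, 3 members in place of 5 were called over T-47D and over both lists, the Ishikawa read pairs fell from 423 to 274 and linked distal anchors without a promoter from 34 to 8, and LNCaP was left with 0 members, 0 read pairs and 0 distal anchors. With 5 or more, distal anchors numbered 17 in Ishikawa and 1 in LNCaP, and with Ishikawa loops in 2 or more parts they numbered 14. Thinned to the shallowest list, Ishikawa kept 113 read pairs and 12 distal anchors over the members, and LNCaP 0 members, 0 read pairs and 0 distal anchors. Scaled to read pairs within 1 Mb, 2 members were called over T-47D and over both lists. Scaled to the stated depth times the number of samples, it was 0 over T-47D, 2 over LNCaP and 0 over both. Scaled to the stated depth per sample it was 3 over LNCaP and 3 over both, and with 3 read pairs allowed for each Ishikawa loop of the gene it was 0 over T-47D and 0 over both. These 3 alternatives were chosen after seeing the data. Why the calls change with the scale was not tested. Leaving out 1 Ishikawa part at a time gave 284 to 376 read pairs over the members and 4 or 5 members called over T-47D. For single members, 39 of 72 recomputed read pairs stayed within the counting interval, and PAX2 and WT1 had 0 with 1 start site per gene.

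No paired analysis was possible because replicates were pooled into 1 list per line, so no column carries a replicate number. Depth limits the T-47D values most, where a single loop under 8.54 RPM is not listed and a gene with several such loops is listed at 0. No result has a replicate, and enzyme, sonication and sequencing cannot be told apart from the cell line.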
